A study of Caenorhabditis elegans with 2 samples.

Results

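The strong autosomal promoter peaks are 357 regions of the Caenorhabditis elegans genome at which tagged PEB-1 gave a high ChIP-seq signal close to the start of a protein-coding gene. They were selected on that signal and on position: the peaks of the list pooled over both replicates were ordered by deposited signal, and a peak was kept if it ranked 1 to 1500, lay on an autosome, and had its summit no more than 1000 bp before or 200 bp after an annotated transcription start site (TSS). The pooled list held 30000 peaks, 24067 of them autosomal, and 1109 autosomal peaks ranked within 1500. The 357 members made up 32.19% of those 1109 (95% exact binomial interval 29.45% to 35.03%), where 28.5% of autosomal peaks of any rank had their summit in such a promoter window. The share is close to that background, and signal and position chose the members, so nothing is read from it. The pooled list is described as holding peaks and background. The thresholded list deposited beside it held 160 peaks, 99 of them autosomal. Of the 357 members, 36 were in the thresholded list, so most members did not pass the deposited threshold. Every member was 356 bp wide, and signals ran from 20.93 to 82.11 with a median of 24.07. Just inside the rank limit lay str-57 (rank 1492, signal 20.95), srx-36 (1493, 20.94) and T04C4.3 (1496, 20.93), and just outside it lay the promoter peaks of lips-6 (1503, 20.92), R148.7 (1511, 20.9) and C23H3.9 (1512, 20.89). At the ends of the promoter window, 39 members had their summit within 100 bp of the limit, and 42 equally strong peaks missed it by up to 100 bp.

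The series is a ChIP-seq experiment, in which DNA crosslinked to a protein is pulled down with that protein and sequenced. The animals were whole second-stage (L2) larvae of strain OP86, genotype unc-119(ed3) III; wgIs86, where wgIs86 is an insertion targeting peb-1 and the pulled-down protein is called eGFP-peb-1, PEB-1 fused to green fluorescent protein. There were 2 biological replicates of pooled males and females, both from 1 donor entry in the labels, and no second genotype, stage or treatment. The labels give peb-1 as the antibody target and point to a possible control experiment, which was not analysed here. The tag sits on an integrated transgene, so the lists describe the fusion protein. Whole animals were used, so a peak cannot be given to a cell type. The files and labels state no read depth, so the intervals cover counting error over peaks or genes only.

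PEB-1 is a nuclear protein that binds DNA through a FLYWCH zinc finger, and it is known for its contact with an enhancer of myo-2, which encodes a pharyngeal muscle myosin. A promoter is the stretch around the start of a gene where transcription factors and RNA polymerase assemble. In nematodes many messenger RNAs are trimmed at the front and joined to a spliced leader, so annotated starts can lie some way from where transcription began, and neighbouring genes are often close enough to share 1 stretch of upstream DNA. GA repeats, in which G and A alternate, are a common feature of nematode promoters, and in flies such repeats are bound by the GAGA factor.

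Sequence was not used to select the members, but the motifs were chosen with earlier results of these data known. The runs below show the 2 short motifs on which the comparisons turn. Each run covers 121 bp centred on the summit, plus strand, from the RefSeq genome of assembly WBcel235 (ce11). The first set is shown because it holds the hexamer GAGAGA, in capitals, in 4 of the highest-ranked members. The regions are II:10502903-10503023 for myrf-1, IV:3636531-3636651 for madf-9, II:2455022-2455142 for pqn-42 and II:10548924-10549044 for mnk-1.
myrf-1: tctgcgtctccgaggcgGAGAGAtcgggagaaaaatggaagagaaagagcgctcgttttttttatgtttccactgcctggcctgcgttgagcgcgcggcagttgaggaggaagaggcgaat
madf-9: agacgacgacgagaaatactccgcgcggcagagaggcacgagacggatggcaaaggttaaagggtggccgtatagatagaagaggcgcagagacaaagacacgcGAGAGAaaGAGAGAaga
pqn-42: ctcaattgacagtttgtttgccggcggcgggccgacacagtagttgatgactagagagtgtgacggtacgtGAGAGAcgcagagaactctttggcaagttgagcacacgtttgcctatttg
mnk-1: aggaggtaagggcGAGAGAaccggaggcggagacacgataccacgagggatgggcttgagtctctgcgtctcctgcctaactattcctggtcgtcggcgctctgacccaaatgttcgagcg

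The second set shows the PEB-1 core in capitals, on either strand: A, G or T, then TGCC, then A or G, the middle of the binding sequence recalled from published work on PEB-1. The snr-4 and pot-3 runs carry it on the minus strand, so that the capitals read as its reverse complement. The regions are V:11980186-11980306 for snr-4, III:13779756-13779876 for pot-3, II:9285065-9285185 for mtrr-1 and III:833864-833984 for zip-2.
snr-4: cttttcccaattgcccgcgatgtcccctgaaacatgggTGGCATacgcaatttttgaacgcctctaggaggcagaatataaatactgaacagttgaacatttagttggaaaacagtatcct
pot-3: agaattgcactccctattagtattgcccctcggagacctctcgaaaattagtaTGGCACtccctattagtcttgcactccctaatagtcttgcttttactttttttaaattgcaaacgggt
mtrr-1: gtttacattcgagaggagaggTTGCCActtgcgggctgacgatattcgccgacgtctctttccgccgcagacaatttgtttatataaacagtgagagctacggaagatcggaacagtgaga
zip-2: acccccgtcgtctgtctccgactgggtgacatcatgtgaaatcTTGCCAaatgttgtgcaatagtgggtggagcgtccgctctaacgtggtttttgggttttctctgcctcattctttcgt

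The strongest member had its summit at -422 bp from the start of myrf-1, the gene of a molting regulator that is cut from a membrane to enter the nucleus (pooled rank 13, signal 82.11, ce11 II:10502785-10503140). Its overlapping peak ranked 7 in the list of replicate 1 (signal 70.37) and 76 in that of replicate 2 (16.93), so it was near the top of both. Signals of the replicate lists are on scales of their own, reaching 154.1 in replicate 1 and 54.2 in replicate 2, and only ranks are set side by side. The next were madf-9, a gene of the MADF-domain family (rank 27; ranks 22 and 120 in replicates 1 and 2), and pqn-42, which encodes a protein with a glutamine- and asparagine-rich domain (rank 36; 46 and 69). The pqn-42 summit lay at -389 bp from an internal start, inside an intron of the longer transcript. The peak of snr-4, an Sm core protein gene of the spliceosome, had rank 37 (52 and 50), with its summit at -523 bp from the snr-4 start and inside the small nuclear RNA gene C52E4.8 (V:11980118-11980261). The peak upstream of gsa-1, the stimulatory G protein alpha subunit gene, ranked 42 (66 and 21; I:1068042-1068397). That of pbrm-1, a polybromo subunit gene of the SWI/SNF chromatin remodeller, ranked 86 (92 and 75; I:7500558-7500913). Members with a best overlapping peak within the first 100 of both replicate lists numbered 5: myrf-1, pqn-42, snr-4, gsa-1 and pbrm-1.

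Most of the other 20 highest members stood much higher in replicate 1 than in replicate 2. The peak of din-1, which encodes a corepressor partner of the nuclear receptor DAF-12, ranked 38 in the pool, 25 in replicate 1 and 1444 in replicate 2. That of cky-1, a bHLH-PAS transcription factor gene, ranked 46, 39 and 922. The promoter of the histone gene his-67, shared with his-68, ranked 49, 40 and 7875. All 3 are strong in the pool and in replicate 1, and in replicate 2 each signal, at 11.58, 12.34 and 8.366, was below the 16.93 of myrf-1.

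Ranks were also better in replicate 1 for several further members. The peaks of iff-2, the translation factor eIF5A gene, ranked 62, 77 and 1821 in the pool, replicate 1 and replicate 2, those of cdc-48.1, an AAA ATPase gene of protein degradation, 71, 55 and 4965, and those of the ribosomal protein gene rpl-35 75, 64 and 13127. The peak of tag-340 ranked 93, 74 and 20270, which makes it the member with the widest gap among the 20. Kinase gene mnk-1 (67, 75 and 1736), methionine synthase reductase gene mtrr-1 (70, 70 and 957) and the bZIP gene zip-2 (80, 93 and 3659), a regulator of the response to infection, fell between these.

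A few of the 20 were as high or higher in replicate 2. The peak of pot-3, a telomere-binding protein gene, ranked 59 in the pool, 162 in replicate 1 and 18 in replicate 2. The peak shared by sec-61.A, which encodes the channel subunit of the protein translocon, and rps-18, a small ribosomal subunit protein gene, ranked 57, 383 and 74. T06E8.2 had ranks of 92, 186 and 152. The remaining peak, at the translocon subunit gene sec-61.G, ranked 94 in the pool and 529 in replicate 2, with a signal of 29.36 in replicate 1, close to those of zip-2 and pbrm-1.

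Over all 357 members, 353 overlapped a peak of replicate 1 by at least 1 bp (98.88%) and 307 a peak of replicate 2 (85.99%). Their median rank was 866 in replicate 1 (interquartile range 368 to 3258) and 2797 in replicate 2 (810.5 to 8498). The pooled list contains the reads of both replicates, so these ranks describe the members and are no independent check of them. Of the members, 47 ranked within 1500 in both replicates, 165 in replicate 1 alone, 68 in replicate 2 alone and 77 in neither. The better rank was in replicate 1 for 238 members (66.67%), against 59.65% of equally strong autosomal peaks off promoters and 53.22% of the weaker promoter peaks found in either replicate; the weaker peaks rank past 1500 and overlap no member. The cause of that imbalance was not tested.

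**Figure D1:**
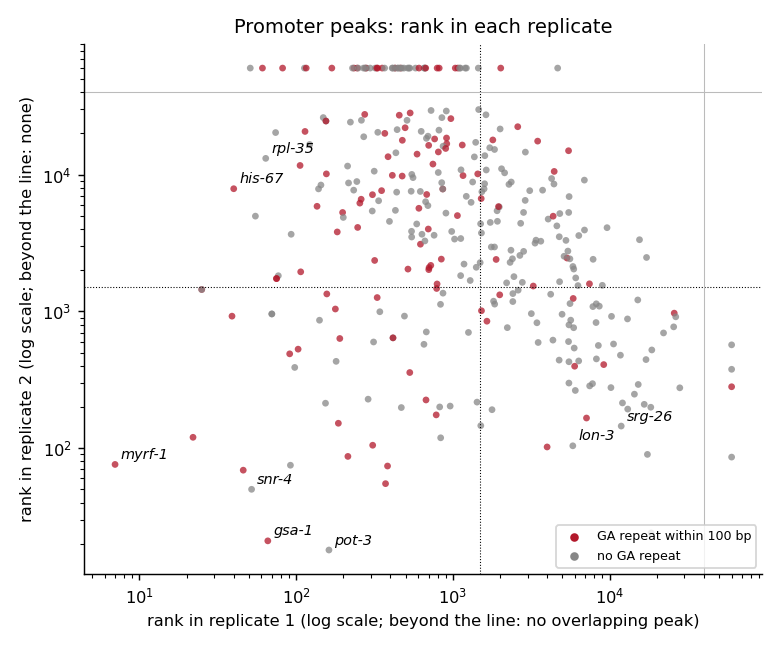
Rank of the best overlapping peak in replicate 1 (x axis) and replicate 2 (y axis), both on log scales, for the 357 members; red points have GAGAGA within 100 bp of the summit, and dotted lines mark rank 1500. Members without an overlapping peak are drawn beyond the grey lines (4 in replicate 1 and 50 in replicate 2), and more points lie above the diagonal than below it.

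The members that each replicate ranked high differed in their sequence. Among the 165 high in replicate 1 alone, 41.21% had GAGAGA near the summit (33.62% to 49.13%) and the median GC content was 45.77%. Among the 68 high in replicate 2 alone, 14.71% had it (7.284% to 25.39%) and the median GC content was 38.81%. The 47 high in both had the largest shares of the 4 classes for GAGAGA (46.81%), the PEB-1 core (63.83%) and exons of non-coding RNA genes (25.53%). The classes differed in pooled strength too. Median pooled ranks were 176 for those high in both, 563 for replicate 1 alone, 895.5 for replicate 2 alone and 1156 for neither. Differences in sequence between the classes therefore cannot be told apart from pooled rank. These classes were formed after the ranks had been seen and were not tested. Examples of peaks high in replicate 2 and low in replicate 1 are those of lon-3, a collagen gene that sets body length (pooled rank 319, rank 5822 in replicate 1), whose signal of 16.11 in replicate 2 was close to that of myrf-1, and srg-26, a chemoreceptor gene (630; 11855 and 145).

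Summits were spread over the whole promoter window, with a median at -279 bp from the nearest start (interquartile range -582 to -65), against -295 bp for the 6475 weaker promoter peaks. The stretch of 250 bp before the start held 109 members (30.53%, against 25.07% of the weaker peaks), and 58 summits (16.25%, against 21.19%) lay at or after the start. The start in the window was the outermost one of a gene for 282 members (78.99%, against 80.8% of the weaker peaks). For the other 75 it was only an internal start, such as those of pqn-42, din-1, mnk-1, zip-2 and pbrm-1. By annotation, 159 summits were intergenic (44.54%, against 41.85% of the weaker peaks), 85 intronic (23.81%, against 23.12%) and 46 in coding exons. Another 22 lay in 5′ untranslated regions (6.162%, against 4.355%) and 7 in 3′ untranslated regions (1.961%, against 3.413%). Coding exons held 12.89% of members and 25.78% of the weaker peaks, a difference that was not tested. By autosome the members numbered 67 on chromosome I, 80 on II, 53 on III, 56 on IV and 101 on V, and V also held the most protein-coding genes of the 5 (28.96%).

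**Figure D2:**
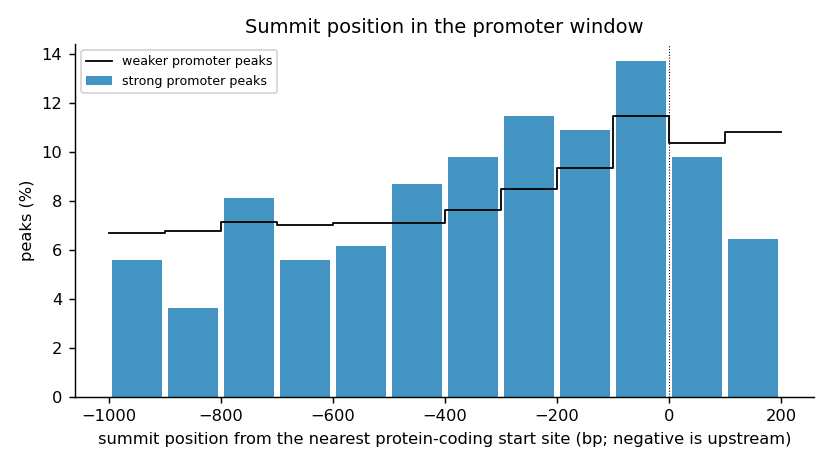
Position of the summit from the nearest protein-coding start in 100-bp bins (x axis, bp; the last bin runs to 200), as a percent of the 357 members (bars) and of the 6475 weaker promoter peaks (line). The bin just before the start is the fullest for the members, at 13.73%, and bins after the start hold 9.804% and 6.443%.

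Summits of the members lay in exons of annotated non-coding RNA genes more often than those of weaker promoter peaks. This was so for 39 of 357 members (10.92%, 7.884% to 14.63%) and 106 of 6475 weaker peaks (1.637%). The odds ratio was 7.369 (95% interval 5.019 to 10.82, Fisher's exact test, Benjamini-Hochberg adjusted p = 1.86e-17 over the 6 shares tested). With the list of replicate 2 in place of the pooled one the shares were 5.769% and 1.673%, an odds ratio of 3.598 (Fisher's exact test, adjusted p = 9.937e-05), and with that of replicate 1 they were 11.08% and 2.214% (adjusted p = 1.861e-16). Both sets obey the same position rule and were split by pooled rank. They also differed in median GC content (43.28% and 36.82%), which was not held fixed for this share, and a cause was not tested. By pooled rank the share among promoter peaks was 22.22% for ranks 1 to 160 and 20.99% for 161 to 500. It was 4.959% for 501 to 1000, 6.723% for 1001 to 1500 and 3.461% in the next bin, which ends at rank 5000. The 10.92% of all members thus came mostly from ranks 1 to 500. Off promoters the share was similar to that of all members, with 69 of the 752 equally strong autosomal peaks (9.176%) having their summit in such an exon. Most of the exons (34 members) belonged to genes of the general class ncRNA, with 4 members in small nucleolar RNA (snoRNA) genes, 4 in small nuclear RNA (snRNA) genes 1 in a transfer RNA gene and 1 in an antisense RNA gene, some in more than 1 class.

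The highest examples were myrf-1, whose summit fell in F59B10.7, snr-4 in C52E4.8, din-1 in the snoRNA gene F07A11.15 and the overlapping F07A11.10, and tag-340 in F26F4.14. The peak of rank 95 is in the promoter window of gcy-33, a guanylate cyclase gene, and of the cathepsin gene cpr-9, and its summit lay in the transfer RNA gene F57F5.t1. For such a summit the list cannot tell the small RNA gene from the protein-coding gene beside it. Start sites of snoRNA genes lay in the same window around the summit for 19 members (5.322%, against 0.6795% of weaker peaks), among them the peaks of din-1, iff-2 and cdc-48.1. The 2 members at sls-2.1 (rank 208) and sls-2.4 (rank 575), genes of the SL2-type spliced leader, ranked 113 and 275 in replicate 1 and overlapped no peak of replicate 2.

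Members also lay in promoter windows shared by neighbouring genes more often than weaker peaks. Windows of 2 or more protein-coding genes held 61 members (17.09%, 13.33% to 21.4%) and 719 weaker peaks (11.1%), with an odds ratio of 1.65 (1.239 to 2.197, Fisher's exact test, adjusted p = 0.001631). The genes stood on both strands in 628 of the 719 weaker peaks and, about as often, in 53 of the 61 members. Such pairs were sec-61.A and rps-18, dlc-1, a dynein light chain gene, with nduf-2.2, a complex I subunit gene (rank 159), and tba-1, an alpha-tubulin gene, with the cytochrome oxidase subunit gene cox-5B (rank 964). In a shared window the lists cannot tell which gene a peak belongs to, so each gene is counted. With the list of replicate 2 in place of the pooled one the shares were 12.82% and 11.11% (adjusted p = 0.4284), and with the list of replicate 1 they were 18.07% and 12.17% (adjusted p = 0.001107), all by Fisher's exact test. With a window of 2000 bp before to 500 bp after the start the call was lost too, at 24.37% and 21.9% (Fisher's exact test, adjusted p = 0.1555).

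GAGAGA, searched on both strands within 100 bp of the summit, was found in 113 members (31.65%, 26.86% to 36.76%). It was found in 14.22% of weaker promoter peaks, with an odds ratio of 2.793 (2.211 to 3.528, Fisher's exact test, adjusted p = 1.632e-15). Strong autosomal peaks outside promoters had it nearly as often, in 30.19%, with an odds ratio of 1.071 (0.816 to 1.406, Fisher's exact test, adjusted p = 0.6262), an interval that leaves room for a modest difference in either direction. Of windows of the same length centred at -279 bp from the start, 11.91% over all 17242 autosomal protein-coding genes held the hexamer. GC content moved with it: the median was 43.28% in members, 42.29% in strong peaks off promoters and 36.82% in weaker promoter peaks. Within windows of 35% to 45% GC the share was 23.13% in members and 15.78% in weaker peaks (Fisher's exact test, adjusted p = 0.0431).

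The GAGAGA difference was smaller in replicate 2 than in replicate 1. Selecting on the list of replicate 1 gave 38.8% against 14.11% (adjusted p = 6.382e-32), and on that of replicate 2 gave 17.95% against 12.73% (adjusted p = 0.02853), both by Fisher's exact test. The difference between the replicates itself was not tested. By pooled rank, the share among promoter peaks was 52.78% for ranks 1 to 160, 44.44% for 161 to 500, 33.06% for 501 to 1000 and 15.13% for 1001 to 1500, near the 18.62% of the next bin, which ends at rank 5000. Among members the share was lower in each further bin, and in the last it was no higher than just past the limit. Of the 91 members with the hexamer and a single gene in the window, 38 had GAGAGA only on the strand of the gene, 45 only TCTCTC, its reverse complement, and 8 had both. Alternations of G and A of at least 12 bases were few, in 8 members (2.241%). The shares were 0.6178% for weaker promoter peaks and 3.059% for strong peaks off promoters, and these were not tested. The longest in a member was 24 bases, at the mnk-1 peak of rank 461.

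**Figure D3:**
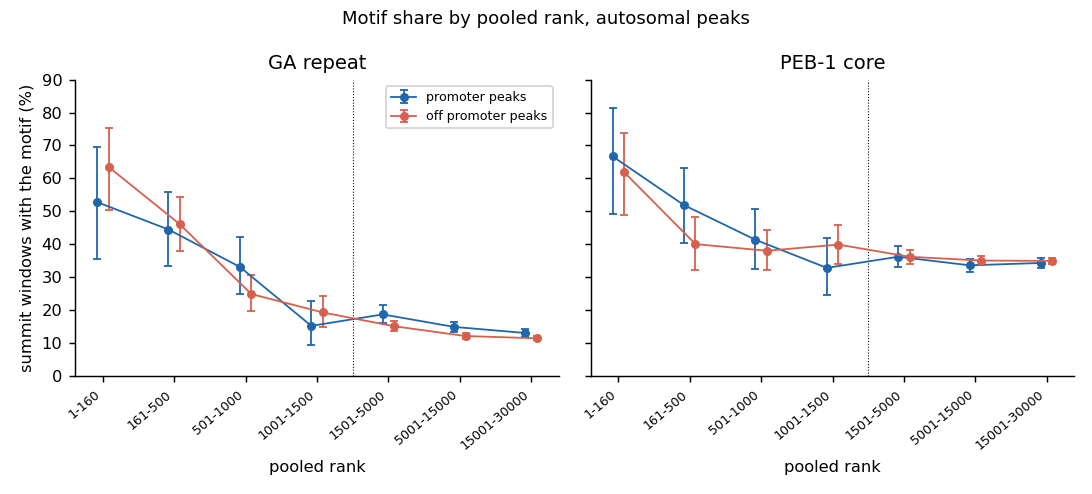
Percent of summit windows (100 bp each side) with GAGAGA (left, called GA repeat) or the PEB-1 core (right) by pooled rank, for autosomal peaks inside (blue) and outside (red) promoter windows; bars are 95% exact binomial intervals and the dotted line marks rank 1500. For promoter peaks GAGAGA falls from 52.78% to 12.96% and the core from 66.67% to 34.27% between the first and last bins, and the peaks off promoters follow a similar course.

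The PEB-1 core was found in 155 members (43.42%, 38.21% to 48.74%) and in 34.27% of weaker promoter peaks, an odds ratio of 1.472 (1.186 to 1.826, Fisher's exact test, adjusted p = 0.000979). In strong peaks off promoters it was found in 41.09%, with an odds ratio of 1.1 (0.8527 to 1.419, Fisher's exact test, adjusted p = 0.5689). Over all autosomal promoters at the same distance the share was 29.94%, so the core is a common string. The difference from weaker peaks was lost with the list of replicate 2 (37.82% against 33.43%, Fisher's exact test, adjusted p = 0.2216), within windows of 35% to 45% GC (41.5% against 37.42%, adjusted p = 0.5074) and with the motif searched within 200 bp (59.1% against 55.77%, adjusted p = 0.3427). Among the 36 promoter peaks of ranks 1 to 160 it was found in 66.67% (49.03% to 81.44%), and in those of ranks 1001 to 1500 in 32.77% (24.45% to 41.98%), against 39.86% of peaks off promoters at those ranks. The longer published consensus, which contains the core, was found in 15.69% of members and 13.05% of weaker peaks. GAGAGA and the core occurred together in 47 members, GAGAGA alone in 66, the core alone in 108 and neither in 136, and the core was about as frequent with GAGAGA (41.59%) as without it (44.26%).

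Both motifs were most frequent at the summit. In windows of 101 bp, GAGAGA was found in 20.45% of members at the summit, in 5.882% centred 500 bp to its left and in 3.922% centred 500 bp to its right. For the core the values were 29.97%, 16.25% and 17.09%. In weaker promoter peaks GAGAGA went from 7.598% at the summit to 5.066% and 5.158%, and the core from 19.26% to 17.62% and 18.9%. Strong peaks off promoters had a local maximum too, with GAGAGA at 18.48% at the summit and 6.383% and 6.25% at 500 bp, and the core at 24.47%, 18.22% and 19.41%.

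**Figure D4:**
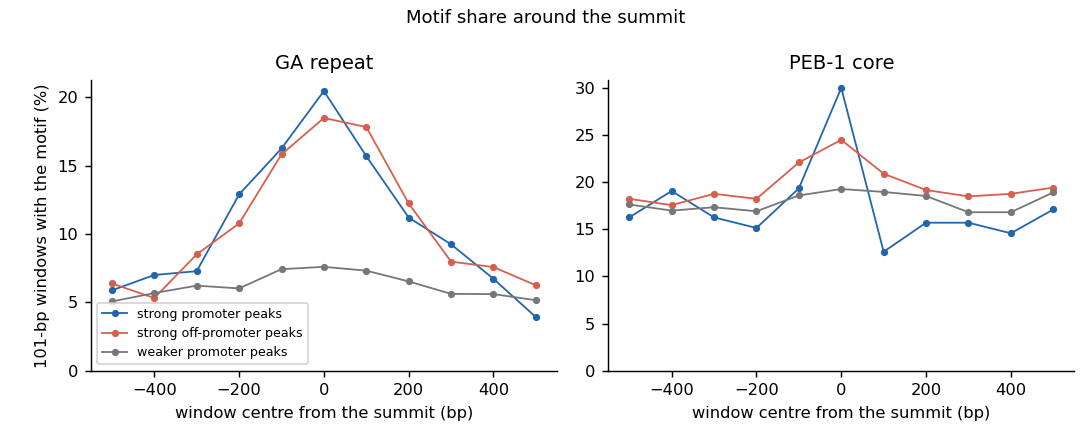
Percent of 101-bp windows with GAGAGA (left, called GA repeat) or the PEB-1 core (right) by distance of the window centre from the summit (x axis, bp), for members (blue), strong autosomal peaks off promoters (red) and weaker promoter peaks (grey). The members reach 20.45% and 29.97% at the summit and the weaker peaks 7.598% and 19.26%.

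Of all strings of 6 bases, counted with their reverse complements, AGAGAG differed most between members (31.09%) and weaker promoter peaks (11.26%), followed by AAGAGA and GAGAGA, which overlap it. CGTCTC, which reads GAGACG on the other strand, was found in 20.17% of members and 7.892% of weaker peaks. At the other end, AAAATT was found in 40.06% and 59.17%, and the strings next to it in order were also made of A and T. Strong peaks off promoters had AGAGAG in 25.27%, CGTCTC in 15.29% and AAAATT in 34.04%, on the same side of the weaker peaks as members. Further motifs were searched on both strands, with no test. TATAAA was in 13.45% of members, 19.38% of weaker peaks and 24.29% of all autosomal promoters, TGATAA, which GATA factors are known to bind, in 10.64%, 17.53% and 19.75%, and TTTTTT in 46.78%, 60.03% and 68.74%. TTTCAG, a typical end of nematode introns, was in 24.37%, 35.29% and 34.39%, and CCGCCC in 7.843%, 4.788% and 3.979%. In strong peaks off promoters the shares were 9.84% for TATAAA, 11.7% for TGATAA, 44.68% for TTTTTT, 23.8% for TTTCAG and 6.649% for CCGCCC. These differences from weaker peaks are thus not particular to the members. CACGTG was in 2.241% of members, GTAAACA in 3.081% and TGACTCA in 1.681%, against 3.155%, 2.975% and 2.134% of all promoters. For strong peaks off promoters these shares were 5.718%, 1.33% and 1.862%. A match is only a string in the window, and so is the lack of one.

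In the 357 windows there were 406 protein-coding genes, which is 2.35% of the 17242 autosomal ones, and counts in gene lists are read against that share. The 38 lists were drawn up with earlier results of these data known, and no list was tested. Of these, 31 had at least 1 gene with a member, and for 5 the 95% exact interval lay wholly on 1 side of 2.35%: cytosolic ribosomal proteins, the mitochondrial respiratory chain and bZIP transcription factors above it, and chemoreceptors and the C-type lectin, F-box and MATH families below it. These intervals make no allowance for the number of lists.

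**Figure D5:**
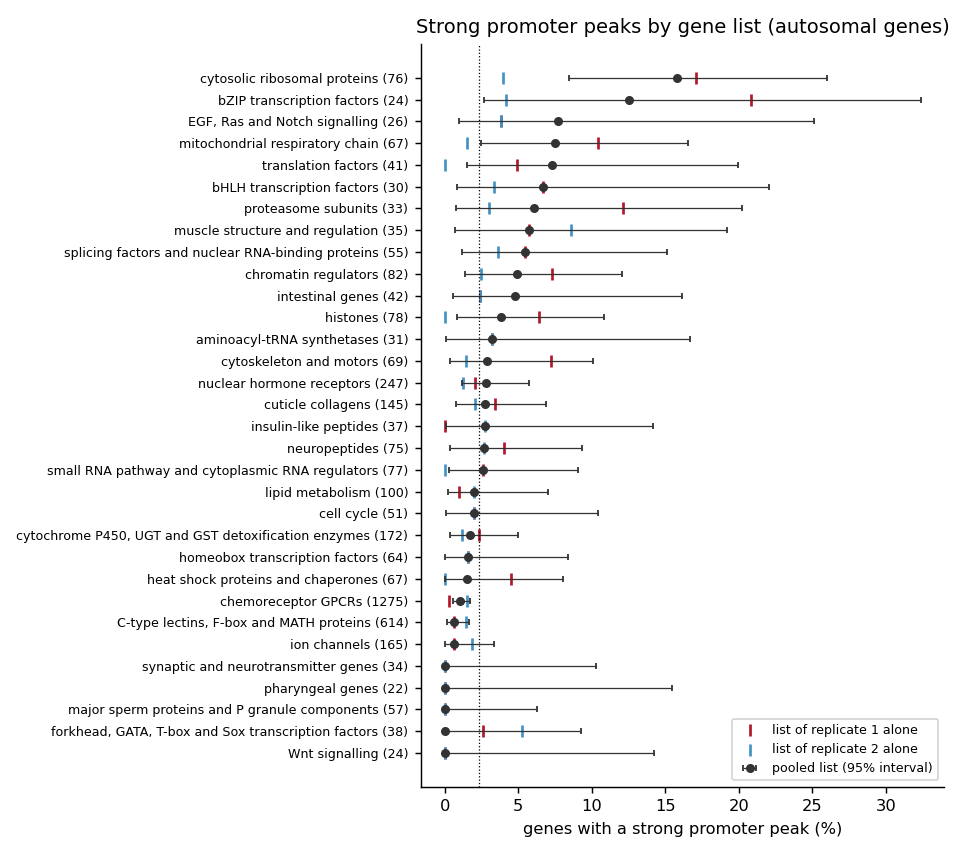
Percent of autosomal genes of each list of at least 20 genes (number in brackets) that have a strong promoter peak, from the pooled list (black, with 95% exact binomial interval) and from the list of each replicate alone (red and blue ticks); the dotted line marks the 2.35% of all autosomal protein-coding genes. Ribosomal protein genes stand at 15.79% in the pool, 17.11% in replicate 1 and 3.947% in replicate 2.

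Of the lists with at least 20 genes, cytosolic ribosomal proteins had the largest share of genes with a member, 12 of 76 (15.79%, 8.434% to 25.96%): rps-18, rpl-35, rpl-10a, rps-26, rpl-18A, rpl-23, rpl-22, rps-12, rpl-39, rpl-15, rpl-3 and rps-28. Their summits lay between -751 and -168 bp from the start of the ribosomal gene. Only rpl-35, rpl-23 and rpl-3 had no other protein-coding gene in the window. For rps-18, rps-26, rpl-22, rps-12 and rpl-39 the start of another gene was nearer to the summit. The summits of rpl-10a and rpl-39 lay in exons of non-coding RNA genes. With the list of replicate 1 the count was 13 of 76 and with that of replicate 2 it was 3 (3.947%), where all genes stood at 2.749% and 2.007%. Of the 12 peaks, 10 ranked better in replicate 1, and 5 (rpl-23, rpl-22, rpl-15, rpl-3 and rps-28) overlapped no peak of replicate 2. The ribosomal count thus rests largely on replicate 1. GAGAGA was in the window of rps-18 and rpl-3 alone among the 12. Other genes of translation with a member were 3 of 41 translation factors (7.317%), namely iff-2, ifg-1, the eIF4G scaffold gene (rank 501), and eif-2Bgamma, and 1 of 31 aminoacyl-tRNA synthetase genes, aars-1.

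The respiratory chain had members at 5 of 67 genes (7.463%, 2.467% to 16.56%; 7 in replicate 1 and 1 in replicate 2). They were nduf-2.2, the cytochrome c gene cyc-2.1 (rank 465), ndub-3, ndua-8 and cox-5B, each in a window shared with at least 1 other gene. In every case another gene had the start nearest to the summit, so the share rests on counting each gene of a shared window. For cyc-2.1 the nearer genes were rpl-18A and Y17G9B.5, and this peak counts in the ribosomal list as well. Proteasome subunits had 2 of 33, pbs-7 (rank 948) and the deubiquitinase gene rpn-11 (1034), vacuolar ATPase subunits 2 of 18, vha-13 (621) and vha-19 (1366), and chaperones 1 of 67, hsp-1, a constitutive HSP70 gene (175). The intervals of these 3 lists contain 2.35%.

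Among transcription factors, bZIP genes had members at 3 of 24 (12.5%, 2.656% to 32.36%), zip-2, atf-2 (rank 153) and zip-11 (1006), and all 3 ranked better in replicate 1, whose own list gave 5 genes where that of replicate 2 gave 1. The bHLH genes had 2 of 30, cky-1 and hlh-11 (135), nuclear hormone receptors 7 of 247 (2.834%), led by nhr-135 (246) and nhr-66 (405), and homeobox genes 1 of 64, mec-3 (1487), a selector of touch neurons. No member was at a forkhead, GATA, T-box or Sox gene (0 of 38, interval up to 9.251%) or at the 3 autosomal FLYWCH genes listed. The list of replicate 1 alone gave 1 of those 38 genes (2.632%) and that of replicate 2 gave 2 (5.263%). Chromatin regulators had 4 of 82 (4.878%), pbrm-1, cbp-1, the CBP/p300 acetyltransferase gene (125), chd-7 and zfp-1.

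Of 12 heterochronic genes, which time larval development, 2 had a member (16.67%, 2.086% to 48.41%). The summit at blmp-1, a zinc finger transcription factor gene, lay at 181 bp, past the start (pooled rank 141; 141 and 861), and that at mab-10, which encodes a cofactor of LIN-29, at -382 bp (275; 546 and 3493). Of 17 molting genes 1 had one, myrf-1. In signalling lists the members were par-5, a 14-3-3 protein gene (174), and smk-1 (1420) for insulin and FOXO (2 of 17), lag-1, the Notch pathway transcription factor gene (714), and the receptor gene lin-12 (1433) for EGF, Ras and Notch (2 of 26), and ins-25 (1331) among 37 insulin-like peptides. Wnt (24 genes) and TGF-beta (17 genes) signalling had none.

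No member lay at the 22 autosomal pharyngeal genes (0%, interval up to 15.44%, which contains 2.35%). The same held for 34 synaptic genes and for 57 genes of sperm proteins and P granules. Genes on the X chromosome could have no member and are not counted, so the pharyngeal count says nothing of targets there. Muscle genes had 2 of 35, unc-60, the cofilin gene (211), and unc-112, the kindlin gene (325), intestinal genes 2 of 42, cpr-9 and the metallothionein gene mtl-1 (1148), and cuticle collagens 4 of 145 (2.759%), led by lon-3 and col-39 (532). Neuropeptide genes had 2 of 75, nlp-31 and nlp-34, at 1 shared peak (1423), and ion channels 1 of 165, the TRPV channel gene ocr-2 (946). Chemoreceptor genes had 13 of 1275 (1.02%, 0.544% to 1.737%), the highest being srg-26 and srv-28 (681). Here the replicates stood the other way round, with 4 genes from the list of replicate 1 (0.3137%) and 19 from that of replicate 2 (1.49%). The C-type lectin, F-box and MATH families had 4 of 614 (0.6515%), led by clec-55 (512) and fbxa-137 (718), with 4 and 9 genes in replicates 1 and 2.

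For each of the remaining lists the interval contained 2.35%. Histones had 3 of 78, his-67, his-68 and his-37 (rank 441), splicing factors and nuclear RNA-binding proteins 3 of 55, led by snr-4 and hrpf-1 (1065), and small RNA pathway genes 2 of 77, the Argonaute gene alg-5, in the window of the his-67 peak, and nhl-2, in that of tag-340. Detoxification enzymes had 3 of 172, led by the glutathione transferase genes gst-13 (457) and gst-27 (728). Lipid metabolism had 2 of 100, the nuclear receptor gene nhr-49 (644) and dhs-19 (870), cytoskeleton and motors 2 of 69, the myosin gene hum-5 (627) and tba-1, and the cell cycle 1 of 51, the cyclin E gene cye-1 (552).

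In 12 genes more than 1 member lay in a promoter window. The din-1 gene had 4, with pooled ranks of 38, 187, 453 and 1193, and the second best ranked 139 in replicate 1 and 7852 in replicate 2. Genes with 3 were egl-30, the Gq alpha subunit gene (ranks 179, 238 and 587), hgap-2 (431, 633 and 750) and miz-1 (553, 1417 and 1489). The 3 hgap-2 members differed between replicates: that of rank 750 overlapped no peak of replicate 1 and ranked 86 in replicate 2, while that of rank 633 ranked 628 and 20678. Genes with 2 were mnk-1, mtrr-1, chd-7, shw-3, T19A5.3, R02D5.24, aars-1 and rga-1, the last pair from the same 2 peaks. Some such members were close together, with 7 neighbouring pairs within 1000 bp, and pairs such as the 2 mnk-1 members overlapped the same peak of each replicate, so they are not independent regions. Keeping 1 summit per 1000 bp left 350 members and kept the direction and the call of every share tested.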

How the data were processed

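The deposited ce11 peak lists were used: 1 for each of 2 biological replicates, 1 for both pooled, and the thresholded list, per the accompanying file listing; the ce10 lists were not. Peak signal is the value that the authors deposited, on a scale their files do not state, and was used only to order peaks within a list. The deposited score in the next measured column held values below 0 for 29058 of 30000 pooled peaks, and only broke ties. Aligner, peak caller, control and cut-off are not stated in the labels.

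Genes and starts came from Ensembl release 115 (assembly WBcel235), with symbols from RefSeq by WormBase ID for 99.97% of autosomal protein-coding genes. Every transcript start counted, and 7 symbols of the gene lists had no match. Motif shares used both strands within 100 bp of the summit. The 6 shares were compared by Fisher's exact test, two-sided, and the p-values adjusted by Benjamini and Hochberg (scipy 1.17.1, Python 3.11.15, threshold 0.05), after a test on simulated data. These tests treat peaks as units of 1 experiment and say nothing of the spread between animals. Intervals are exact binomial (Clopper-Pearson), or 95% on the log scale for odds ratios. Members, motifs and gene lists were chosen with earlier results of these data known. Genes named were those nearest to the 20 highest members, the 2 highest of each list, members within rank 100 of both replicates, 3 on each side of rank 1500, genes with several members, and, chosen after their values were seen, all members of the lists set off from the background, examples of shared windows, non-coding exons and replicate differences. Alternatives were other windows, ranks, motif reaches, GC limits, thinning, a single outermost start (added after seeing the data) and each replicate's list alone.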

Additional observations from a re-analysis of the deposited data

How the results depend on the processing

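No paired analysis was possible because there is 1 group. Of 80 alternative values, 63 kept the direction and the side of the threshold, or for counts stayed within 1.5 times. The number of members was 235 with 500 bp before and 100 bp after the start, 595 with 2000 and 500 bp, 186 for ranks 1 to 750 and 36 for ranks 1 to 160, and the number of genes was 259, 725, 214 and 46. Differences from here on are percentage points, members minus comparison. The core difference from weaker peaks lost its call with the motif within 200 bp (3.335) and within 35% to 45% GC (4.079), and ranged from 4.392 to 8.655 when 1 replicate was left out, the lower value, without replicate 1, no longer passing the threshold. Windows of 2 or more genes gave 2.473 with the wider promoter window and 1.715 to 5.902 when 1 replicate was left out, and lost its call with the wider window and without replicate 1. Against strong peaks off promoters, where no difference passed the threshold under any alternative, the sign turned for GAGAGA at ranks 1 to 750 (-0.8641) and 1 to 160 (-10.71), and for the core within 200 bp (-0.4708) and when 1 replicate was left out (-0.6739 to 3.501). Apart from the fewer peaks of narrower selections, causes were not tested. Using outermost starts alone left 282 members and no call changed. What depth limits cannot be given, since the files hold peaks without read counts.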
